A study of Mus musculus with 4 samples.

Results

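The cells described here are inhibitory cells of the embryonic mouse cerebellum that carried RNA of Sst or Cartpt, the genes of the neuropeptide precursors somatostatin and CART. They were chosen by their own counts and not by a cell atlas. A barcode was kept when 500 or more genes were detected and no more than 10% of its UMIs were mitochondrial, a UMI being 1 counted RNA molecule. Of the kept barcodes, those were taken that had at least 2 UMIs of Sst and Cartpt together, at least 1 of Gad1, Gad2, Slc32a1 and Slc6a5, at most 1 of Foxp2, Calb1 and Skor2, and 0 of Neurod1, Neurod6, Nanos1, Nhlh2 and Scx. This gate found 124 cells among 24856 kept barcodes, which is 0.499% of them. The levels of these 14 genes chose the cells and are given below as a description, with no test.

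Cells marked by the tdTomato reporter (tdT+) were sorted from pooled cerebella of E15.5 mouse embryos, and single-cell libraries were made with 10x Genomics 3′ chemistry. The mutant group, En1/2 CKO, was En1lox/lox and En2lox/lox and carried Ptf1aCre/+ with the reporter R26LSL-tdT/+, and the control group carried Ptf1aCre/+ with R26LSL-tdT/+ alone. Cre and the reporter were thus present in both groups, Ptf1a drives Cre in the cells of the cerebellum that give rise to inhibitory neurons, and the label of the control names no floxed En1 or En2 allele. Each group had 2 libraries, numbered replicate 1 and replicate 2. The number of embryos in a pool is not given in the sources used here, so p-values measure the spread between pools.

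Inhibitory neurons of the cerebellum come from progenitors of the ventricular zone that express Ptf1a, and they release GABA, some of them with glycine. En1 and En2 are homeodomain transcription factors that pattern the midbrain and the anterior hindbrain and act again in later cerebellar neurons. Somatostatin and CART are made as precursors, cut and stored in dense-core vesicles, and in adult forebrain somatostatin marks a large class of inhibitory interneurons. The somatostatin promoter is the textbook example of a promoter with a cAMP response element, the palindrome that the factor CREB binds.

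The promoters of both peptide genes are shown because their transcripts define these cells. Each sequence is the 250 bases before the gene's start in RefSeq on GRCm38.p6, on the minus strand of the genome and written 5′ to 3′, with the letters TGACGTCA of the cAMP response element in capitals. Sst lies at chr16:23890845-23891094 and Cartpt at chr13:99900684-99900933.
Sst promoter: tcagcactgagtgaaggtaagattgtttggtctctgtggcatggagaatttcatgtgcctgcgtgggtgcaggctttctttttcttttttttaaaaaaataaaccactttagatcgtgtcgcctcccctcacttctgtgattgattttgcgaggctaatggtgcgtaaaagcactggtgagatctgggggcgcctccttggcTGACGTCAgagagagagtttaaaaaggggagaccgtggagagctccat
Cartpt promoter: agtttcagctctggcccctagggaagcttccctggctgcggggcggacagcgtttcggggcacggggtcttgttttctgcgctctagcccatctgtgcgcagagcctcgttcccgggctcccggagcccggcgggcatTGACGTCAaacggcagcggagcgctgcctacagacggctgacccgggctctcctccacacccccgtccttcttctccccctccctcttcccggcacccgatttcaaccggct
Both windows held 1 copy of TGACGTCA, with its first base at position -48 from the start in Sst and at -112 in Cartpt. TGACGTCA reads the same on both strands and was found in 508 of 32851 RefSeq promoters of the same length, 1.55% of them. Its shorter core TGACG, searched on both strands, overlaps it and was found in 17.8% of promoters. Neither window held TAATTA, a core that homeodomain factors bind (4.84% of promoters), or TATAAA (12.4%), and each held 1 E-box CANNTG (66.2%). The windows of Slc32a1 and Igfbp5 held no TGACGTCA. These matches describe letters and do not show that a factor was bound.

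The libraries differed in quality. Deposited barcodes numbered 8190 and 11513 in the En1/2 CKO libraries, against 10991 and 4619 in the controls, with total counts between 5305154 and 21021428 UMIs. The share that passed the cell filter was 63.9% and 69.8% in En1/2 CKO, against 94.6% in control replicate 1 and 25.5% in control replicate 2. Control replicate 2 stood apart, with a median mitochondrial share of 13.4% over all its barcodes, against 3.15% to 5.88% in the other libraries. Between 1 and 22 kept barcodes were shared by any pair of libraries, and 2 gated cells in all carried a shared barcode.

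Sst and Cartpt RNA was spread over many more cells than the gate took. At least 2 UMIs of the pair were found in 229 and 279 En1/2 CKO cells, against 388 and 27 control cells, 923 in all. Of these, 799 (86.6%) failed another term of the gate. A UMI of Neurod1, Neurod6, Nanos1, Nhlh2 or Scx, genes of differentiating neuronal precursors or tendon, was carried by 705 cells (76.4%). This share was 90.8% and 74.6% in En1/2 CKO, against 67.8% and 96.3% in control. In all kept cells it was 53.8% and 47.6% in En1/2 CKO, against 57.8% and 55.1% in control. Of the 923 cells, 241 had no UMI of an inhibitory gene and 682 had at least 1. Such a UMI was found in 33.96% and 29.03% of all kept cells in En1/2 CKO, against 44.87% and 24.98% in control. Both kinds of UMI were thus more frequent in the 923 cells than in all kept cells, and the part of depth was not tested. The gate held 12 and 34 cells in En1/2 CKO, against 78 cells in control replicate 1 and 0 in control replicate 2. It held 1.58% and 7.78% of the Sst UMIs of the kept En1/2 CKO cells, against 14.1% in control replicate 1. For Cartpt these shares were 3.18% and 5.82% in En1/2 CKO, against 10.0% in control replicate 1. Most of the peptide RNA in these libraries therefore lay outside the gated cells.

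The lower limit of the gate lies within a continuous range. Of the gated cells, 63 had 2 UMIs of the pair, the minimum, and 24 had 3. Just outside, 218 cells met every other term with 1 UMI, 25 and 50 in En1/2 CKO, against 139 and 4 in control. The highest counts in 1 cell were 4 and 7 UMIs of Sst in En1/2 CKO, against 8 in control replicate 1. For Cartpt they were 6 and 17 UMIs in En1/2 CKO, against 14 in control replicate 1. Free RNA in the droplets can also give such counts. Microglia, which are not known to make these peptides, were taken as cells with at least 3 UMIs of C1qa, C1qb, C1qc and Csf1r. At least 1 UMI of Sst or Cartpt was found in 1.59% and 3.99% of these cells in En1/2 CKO, against 5.77% and 0% in control. At least 2 UMIs were found in 0% and 0.362% of them in En1/2 CKO, against 1.92% and 0% in control. Over all kept cells the shares with 2 UMIs were 4.37% and 3.47% in En1/2 CKO, against 3.73% and 2.29% in control. The microglia were the deeper cells, with medians of 4396 and 2549.5 UMIs in En1/2 CKO, against 3278.5 and 3390 UMIs in control. At least 1 peptide UMI was found in 10.9% and 10.7% of the cells that met the other gate terms in En1/2 CKO, and in 13.9% and 10.0% in control. Over all kept cells it was found in 11.6% and 11.1% in En1/2 CKO, and in 11.8% and 6.80% in control. The median depth of all kept cells, 2399 and 1119 UMIs in En1/2 CKO against 1197 and 2431 UMIs in control, was above that of the inhibitory cells without a peptide UMI, 1108 and 981 UMIs in En1/2 CKO against 1145 and 1924 UMIs in control, and the part of depth in these shares was not tested.

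Of the 5 markers given for this cell type, Sst, Cartpt and Slc32a1 are gate genes and present by choice, while Nxph1 and Galr1 lie outside the gate and had 6 and 2 UMIs in all gated cells. Levels are given in CPM, the gene's share of all UMIs summed over the gated cells of a library, scaled to 1e+06 UMIs. Sst, the somatostatin precursor, had 560 and 1976 CPM in the En1/2 CKO libraries, against 1304 CPM in control replicate 1. Cartpt had 1120 and 1122 CPM in En1/2 CKO, against 1056 CPM in control replicate 1. Slc32a1, the vesicular transporter of GABA and glycine, had 1374 and 1042 CPM in En1/2 CKO, against 1082 CPM in control replicate 1. Nxph1, a neurexin ligand, had 102, 53.4 and 17.7 CPM (2 UMIs each) in the gated cells of En1/2 CKO replicates 1 and 2 and control replicate 1, against 24.6, 29.0 and 18.9 CPM in the other inhibitory cells of these libraries, and its difference from the other inhibitory cells was not called (log2 fold change 0.64, SE 0.84, edgeR quasi-likelihood test, Benjamini-Hochberg adjusted p = 0.957). Galr1, a galanin receptor, had 1 UMI in each En1/2 CKO library, against 0 in control replicate 1. Nxph1 and Galr1 were too thinly counted to tell whether they mark these cells, and the cells are called the gated Sst/Cartpt cells below.

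The gate asked for a UMI of an inhibitory gene, so that the levels of Gad1, Gad2 and Slc6a5 are a description of the chosen cells. Gad1, a GABA-synthesising enzyme, had 255 and 454 CPM in the gated En1/2 CKO cells, against 319 CPM in control replicate 1. Gad2, the other such enzyme, had 102 and 160 CPM in En1/2 CKO, against 133 CPM in control replicate 1. Slc6a5, the glycine transporter of glycinergic neurons, had 0 and 2 UMIs in En1/2 CKO, against 6 in control replicate 1. Slc17a6, the vesicular glutamate transporter and no gate gene, had no UMI in any gated cell, which with 169817 UMIs in all allows up to 17.7 CPM (3 counts). Calb1 and Skor2, genes of Purkinje cells that the gate limits, had no UMI either. The reporter transcript TdTom had 458 and 374 CPM in the gated En1/2 CKO cells, against 346 CPM in control replicate 1. Of 19 Hox genes, which mark the hindbrain behind the cerebellum, 4 had a UMI in any gated cell.

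En1 and En2, the deleted genes, were thinly counted. En1 had 3 and 7 UMIs in the gated En1/2 CKO cells (153 and 187 CPM), against 12 UMIs (106 CPM) in control replicate 1. En2 had 0 and 1 UMI in the gated En1/2 CKO cells, against 11 UMIs (97.6 CPM) in control replicate 1. In the other inhibitory cells En2 had 36.1 and 18.7 CPM in En1/2 CKO, against 114 CPM in control replicate 1 and 1 UMI (11.9 CPM) in control replicate 2. Which exons the lox sites flank is not given in the sources used here, so 3′ tags of En1 do not check its deletion.

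**Figure D1:**
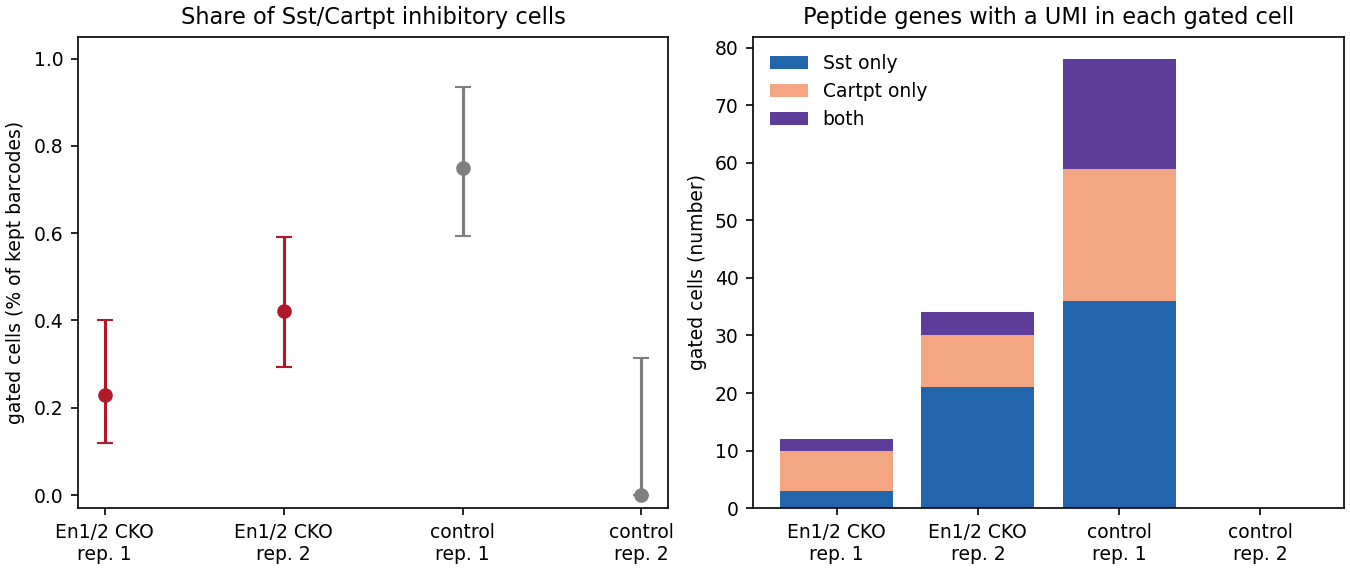
Left, gated Sst/Cartpt cells as a percentage of kept barcodes in each library, with exact 95% binomial intervals (En1/2 CKO in red, control in grey). Right, the number of gated cells in each library with UMIs of Sst only, Cartpt only or both. The control libraries, with 78 and 0 gated cells, lie on either side of both En1/2 CKO libraries, with 12 and 34.

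The share of gated cells did not separate the genotypes. It was 0.229% (exact Clopper-Pearson 95% interval 0.118% to 0.400%) and 0.423% (0.293% to 0.590%) of kept cells in En1/2 CKO. It was 0.750% (0.593% to 0.935%) in control replicate 1 and 0 of 1177 cells in control replicate 2, where the same interval reaches up to 0.313%. The means were 0.326% in En1/2 CKO and 0.375% in control, a difference of -0.0489 percentage points (exact permutation test of libraries, two-sided p = 1, 2 libraries a group, smallest possible p 0.333). The direction rests on single libraries. Without control replicate 1 the difference was 0.326 percentage points, without control replicate 2 it was -0.424, and without En1/2 CKO replicate 1 it was 0.0479. Taken over the cells that met the other terms of the gate, 340 and 785 in En1/2 CKO against 1561 and 40 in control, the share was 3.53% (1.84% to 6.08%) and 4.33% (3.02% to 6%) in En1/2 CKO. Over the same denominator it was 5.00% (3.97% to 6.20%) in control replicate 1, and 0 of 40 cells in control replicate 2, where the interval reaches up to 8.81%. The libraries overlapped within their counting error over this denominator, and the difference of the means, 1.43 percentage points, had the opposite sign. Without control replicate 2 the means over this denominator were 3.93% in En1/2 CKO and 5.00% in control, the sign of the difference in kept cells. Intervals cover counting error only.

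In most gated cells RNA of only 1 of the 2 peptides was detected. As 63 of the 124 cells had just 2 UMIs of the pair, RNA of the other peptide could have gone undetected. Sst without Cartpt was found in 60 cells (48.4%), Cartpt without Sst in 39 (31.5%) and both in 25 (20.2%). Cells with Sst only made up 25% and 61.8% of the gated cells in En1/2 CKO, against 46.2% in control replicate 1. Cells with Cartpt only made up 58.3% and 26.5% in En1/2 CKO, against 29.5% in control replicate 1. The En1/2 CKO libraries lay on either side of the control library in both shares, which come from the counts that chose the cells and are given with no test. Among all cells that met the other gate terms, Cartpt was found in 8.70% and 8.89% of those with Sst and in 4.42% and 5.27% of those without Sst in En1/2 CKO. In control replicate 1 it was found in 14.6% of cells with Sst and in 6.08% of those without. The share in cells with Sst was the larger in each of these 3 libraries and rested on 2, 4 and 19 cells, and no test was made across cells.

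The Sst-only and Cartpt-only cells were not compared by a test, because a minimum of 10 cells of each per library had been set and only control replicate 1 met it. In that library Igfbp5 had 67 UMIs (1302 CPM) in the 36 Sst-only cells and 22 UMIs (727 CPM) in the 23 Cartpt-only cells. Ebf1, a transcription factor of Purkinje cells and other early neurons, had 40 UMIs (777 CPM) in the Sst-only cells and 12 UMIs (396 CPM) in the Cartpt-only cells. Gad1 and Pnoc lay the other way: Gad1 had 10 UMIs (194 CPM) in the Sst-only cells and 16 UMIs (529 CPM) in the Cartpt-only cells, and Pnoc had 32 UMIs (622 CPM) in the Sst-only cells and 33 UMIs (1090 CPM) in the Cartpt-only cells. In En1/2 CKO replicate 2, with 21 Sst-only and 9 Cartpt-only cells, Igfbp5, Gad1 and Pnoc had the same order, with 1327 against 610 CPM of Igfbp5 (30 and 6 UMIs), 310 against 508 CPM of Gad1 (7 and 5 UMIs) and 752 against 914 CPM of Pnoc (17 and 9 UMIs). Ebf1 did not, with 442 CPM in the Sst-only and 813 CPM in the Cartpt-only cells of that library. In En1/2 CKO replicate 1, with 3 Sst-only and 7 Cartpt-only cells, Igfbp5 had 13 against 1 UMI (3097 and 75.0 CPM), Gad1 had 0 against 5 UMIs (0 and 375 CPM) and Ebf1 had 0 against 2 UMIs (0 and 150 CPM). Pnoc had 4 against 8 UMIs there, which is 953 against 600 CPM and the opposite order to the other libraries. These counts are small and are given as values only.

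Sub-clusters of the 124 cells, made without the gate genes, numbered 6, of 18 to 24 cells each, and every sub-cluster held cells of the 3 libraries. Sub-cluster 3 (20 cells) was led by Apoe, Sparcl1, Ednrb, Ctsb and Olig1, genes of glia and microglia. It held 16.7%, 26.5% and 11.5% of the gated cells of En1/2 CKO replicates 1 and 2 and control replicate 1. Its levels of Sst (821 CPM) and Slc32a1 (636 CPM) were the lowest of the 6, while that of Cartpt (874 CPM) was not. Sub-cluster 1 (24 cells) was led by Mau2, Ebf1 and Zfp280d, with Pnoc after them. Sub-cluster 2 was led by Guk1, Cpt1c and Setd2, sub-cluster 4 by Spock3, Bet1l and Sun1, sub-cluster 5 by R3hdm4, Nfyb and Mri1, and sub-cluster 6 by Mapk10 and Zkscan1. With so few cells and UMIs the sub-clusters stay numbered.

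To ask what else these cells shared, the gated cells were compared with the other inhibitory cells, which met the same gate terms but had no UMI of Sst or Cartpt, 303 and 701 cells in En1/2 CKO and 1344 in control replicate 1. The gated cells carried more RNA of neuronal genes such as Pnoc, Igfbp5, Glra2, Grin2b and Dner and less of Fabp7, Vim, Mki67 and other genes of progenitors. Counts were summed per library and population and compared within libraries by edgeR's quasi-likelihood test with the library as a block, which left out control replicate 2, with no gated cell. Of 6845 genes tested without the gate genes, 45 (0.657%) passed a Benjamini-Hochberg adjusted p of 0.05. Of these, 16 (0.234% of all tested) were higher and 29 (0.424%) lower in the gated cells, and the median log2 fold change of all genes was -0.13. Depth was similar, with median UMIs per cell of 1233, 998.5 and 1317.5 in the gated cells of En1/2 CKO replicates 1 and 2 and control replicate 1, and of 1108, 981 and 1145 in the other cells of the same libraries.

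The neuropeptide precursor among the higher genes was Pnoc, which encodes the precursor of nociceptin, an opioid-like peptide. Pnoc had 611, 908 and 665 CPM in the gated cells of En1/2 CKO replicates 1 and 2 and control replicate 1, against 108, 212 and 280 CPM in the other cells of the same libraries. No gated library overlapped the other cells, and the log2 fold change was 1.68 (SE 0.29, adjusted p = 1.2e-05, edgeR quasi-likelihood). Of 35 genes of neuropeptides and their processing, 20 had a UMI in the gated cells, 9 were tested, 1 was higher, 0 were lower and the median log2 fold change of those tested was 0.76. Pcsk1n, an inhibitor of a peptide-cutting enzyme, had 1120, 2003 and 3433 CPM in the gated cells against 603, 781 and 2134 CPM in the other cells. It was not called (log2 fold change 0.81, SE 0.27, adjusted p = 0.206, edgeR), nor were Scg5 (0.76, adjusted p = 0.339) and Cpe (0.63, adjusted p = 0.514), which act in peptide secretion and processing. Of 24 peptide receptors, 7 had a UMI in the gated cells and none was called among the 2 tested (median log2 fold change -0.19).

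Igfbp5, Sez6, Dner, Dll1 and Nxph4 encode secreted or membrane proteins and were also among the named higher genes. Igfbp5, a secreted binding protein of insulin-like growth factors, had 865, 1042 and 1091 CPM in the gated cells of En1/2 CKO replicates 1 and 2 and control replicate 1, against 171, 133 and 396 CPM in the other cells. These values did not overlap, and the log2 fold change was 2.03 (SE 0.28, edgeR adjusted p = 3.38e-09). Sez6, a membrane protein of dendrites and synapses, had 560, 881 and 985 CPM in the gated cells against 184, 222 and 381 CPM in the other cells (log2 fold change 1.49, SE 0.29, edgeR adjusted p = 0.000129). Dner, a neuronal membrane protein that binds Notch, had 1018, 1309 and 1473 CPM in the gated cells against 298, 327 and 602 CPM in the other cells (log2 fold change 1.5, SE 0.28, edgeR adjusted p = 6.39e-05). Both genes were higher in the gated cells of each library, as the rule for naming genes required. Their values did not overlap between the populations, but genes were named among called genes ranked by fold change. The share of all tested genes without overlap is not given here, so that non-overlap adds no support for any named gene. Dll1, a Notch ligand, was higher too, with a log2 fold change of 1.53 (SE 0.42, edgeR adjusted p = 0.0441). Nxph4, a neurexophilin like the listed marker Nxph1, had 865, 668 and 1402 CPM in the gated cells against 216, 220 and 713 CPM in the other cells. Its groups overlapped across libraries but were apart within each, with a log2 fold change of 1.28 (SE 0.29, edgeR adjusted p = 0.0025).

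**Figure D2:**
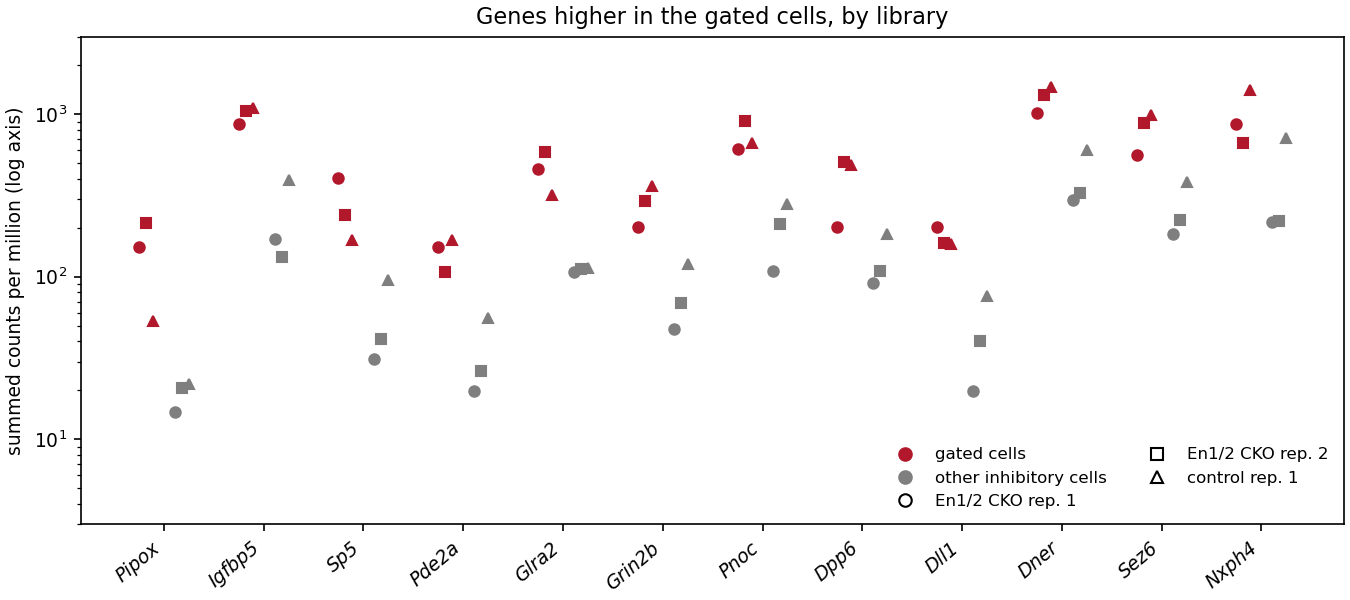
CPM (log axis) of the 12 named genes that were higher in the gated Sst/Cartpt cells (red) than in the other inhibitory cells (grey), with 1 symbol shape per library. In each library the red symbol lies above the grey one for every gene, which the rule for naming genes required. Igfbp5, for example, had 865 to 1091 CPM in the gated cells against 133 to 396 CPM in the others.

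Receptor and channel genes followed. Glra2, the glycine receptor subunit of embryonic neurons, had 458, 588 and 319 CPM in the gated cells of En1/2 CKO replicates 1 and 2 and control replicate 1, against 107, 112 and 114 CPM in the other cells. The groups did not overlap, and the log2 fold change was 1.79 (SE 0.31, edgeR adjusted p = 1.2e-05). Grin2b, a subunit of the NMDA glutamate receptor, had 204, 294 and 364 CPM in the gated cells against 47.6, 69.2 and 120 CPM in the other cells (log2 fold change 1.72, SE 0.38, edgeR adjusted p = 0.00168). Dpp6, a partner subunit of A-type potassium channels, had 204, 507 and 488 CPM in the gated cells against 91.8, 108 and 184 CPM in the other cells (log2 fold change 1.53, SE 0.31, edgeR adjusted p = 0.000553). Pde2a, which degrades cyclic nucleotides, had 153, 107 and 169 CPM in the gated cells against 19.7, 26.2 and 55.4 CPM in the other cells (log2 fold change 1.80, SE 0.47, edgeR adjusted p = 0.0243). In the other cells of both En1/2 CKO libraries Pde2a was under the limit of the low-count filter. It was thus tested only because of the gated libraries, where it was high. These genes were higher in the gated cells of every library, which was a condition for being named. Of the 16 genes called higher, 15 met that condition.

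Most members of the lists these genes belong to did not pass. Among 24 glutamate receptor subunits 10 were tested and 1, Grin2b, was higher, with a median log2 fold change of 0.77. Of 19 GABA-A and glycine receptor subunits, 7 were tested and 1, Glra2, was higher (median 0.65). For voltage-gated channels, 19 of 40 were tested and 0 passed, while the fitted log2 fold change was positive for 19 of these 19 (median 0.49). Synaptic genes had 20 of 38 members tested, of which 2 were higher, Nxph4 and the vesicle protein gene Syp (log2 fold change 1.26, SE 0.32, edgeR adjusted p = 0.0179), with a median of 0.47. Of 29 guidance and migration genes, 19 were tested and 1 was higher, the netrin receptor gene Unc5c (log2 fold change 1.17, SE 0.28, edgeR adjusted p = 0.00979), with a median of -0.06. The genes of GABA and glycine synthesis and transport outside the gate had 6 members tested and 0 called (median -0.07). The medians cover only members that passed a filter on low counts. Gabbr2, at 13.1, 18.7 and 10.0 CPM in the other cells of the 3 libraries, passed it only through the gated cells. There it had 50.9, 53.4 and 17.7 CPM. Passing in this way can raise the fitted values, and how far it did was not tested. Over all 6845 genes the median was -0.13, 0.234% were called higher and 0.424% lower. The share of positive values over all genes is not given here.

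A list of 66 transcription factors of inhibitory lineages was looked at next. Of all 6845 genes tested, 0.234% were called higher and 0.424% lower, so that few calls could be expected from a list of this size. Of these 66 factors, 44 had a UMI in the gated cells, 36 were tested, 0 were higher and 1 was lower. That 1 was Ebf1, with 102, 507 and 532 CPM in the gated cells of En1/2 CKO replicates 1 and 2 and control replicate 1, against 684, 737 and 1489 CPM in the other cells (log2 fold change -1.42, SE 0.31, edgeR adjusted p = 0.00207). Pax2, which marks precursors of cerebellar interneurons, had 255, 427 and 364 CPM in the gated cells against 126, 204 and 360 CPM in the other cells and was not called (log2 fold change 0.42, SE 0.32, edgeR adjusted p = 0.848). Tfap2b, a factor of inhibitory cerebellar neurons, had 305, 454 and 514 CPM in the gated cells against 175, 255 and 590 CPM in the other cells (log2 fold change 0.20, SE 0.31, edgeR adjusted p = 0.971). Both were thus detected in all 3 gated libraries at levels that overlapped those of the other cells. Outside the list, Sp5, a factor induced by Wnt signals, was higher, with 407, 240 and 169 CPM in the gated cells against 31.2, 41.1 and 95.5 CPM in the other cells (log2 fold change 1.82, SE 0.41, edgeR adjusted p = 0.00273). Pipox, a peroxisomal oxidase, had the largest log2 fold change of the named higher genes, 2.33 (SE 0.61, edgeR adjusted p = 0.0243), with 153, 214 and 53.2 CPM in the gated cells against 14.8, 20.6 and 21.8 CPM in the other cells. All its levels in the other cells were under the limit of the low-count filter. Pipox was thus tested only because of the gated libraries, where it was high. In the gated cells of En1/2 CKO replicate 1 its 153 CPM stood for 3 counts.

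**Figure D3:**
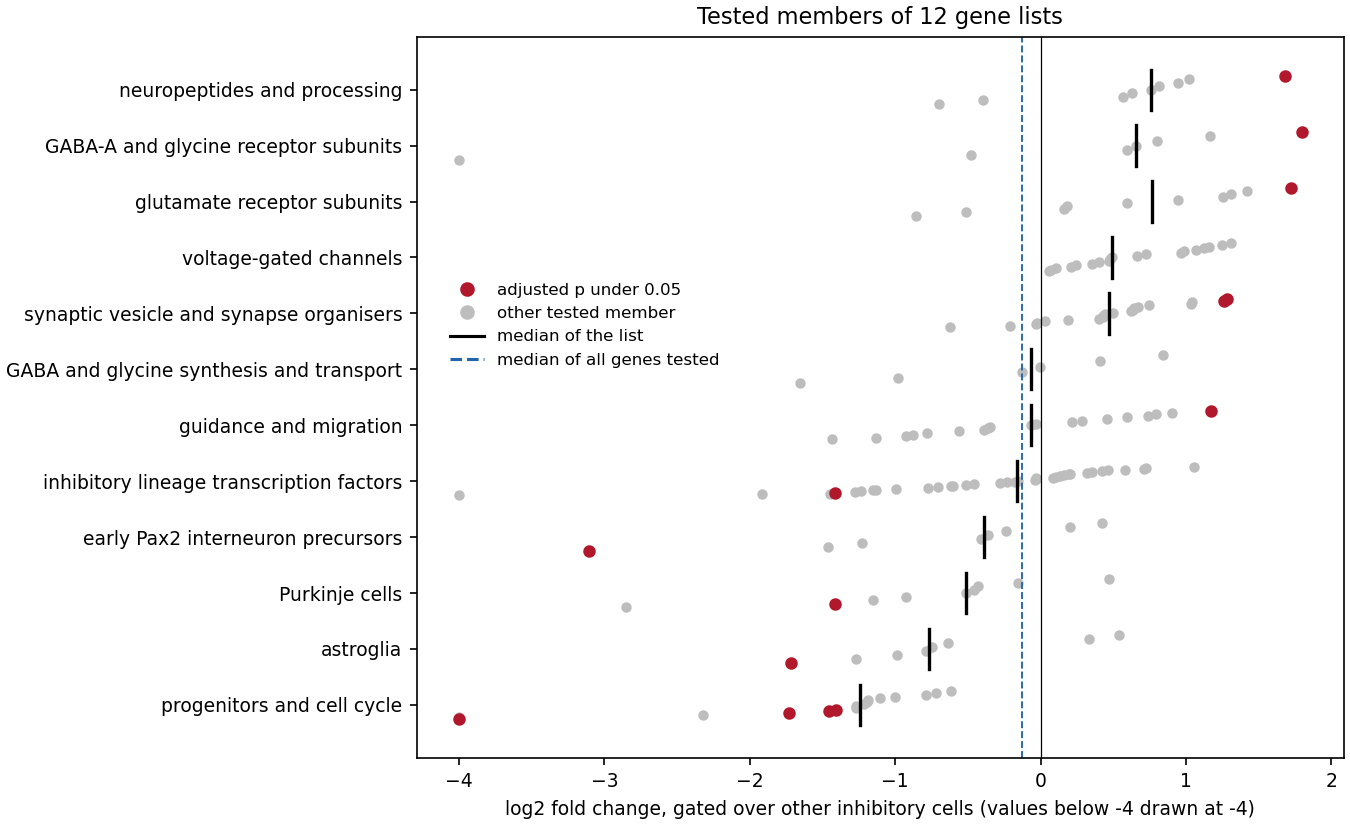
Log2 fold change, gated Sst/Cartpt cells over other inhibitory cells, of the tested members of 12 gene lists, with members past an adjusted p of 0.05 in red, list medians as black bars and the median of all 6845 genes (-0.13) as a dashed line. The medians of the neuropeptide, GABA-A and glycine receptor, glutamate receptor, channel and synapse lists lie between 0.47 and 0.77, and that of the progenitor list lies at -1.24.

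The lower genes included those of dividing cells, progenitors and glia. Mki67 and Prc1, genes of cell division, and Wls, needed to secrete Wnt proteins, had no UMI in any gated cell. Against the limit of 3 counts over all gated cells, Wls was at least 4.01-fold lower, Mki67 at least 3.34-fold and Prc1 at least 2.87-fold. Of 16 genes of progenitors and the cell cycle, 16 were tested and 0 were higher. Lower were 4, Mki67, Fabp7, Vim and Hes5, against 0.424% of all genes tested. The median log2 fold change of the 16 was -1.24 (-1.21 with the 2 members at 0 set to their limit). Fabp7, a lipid-binding protein of radial glia, had 1527, 2243 and 1020 CPM in the gated cells of En1/2 CKO replicates 1 and 2 and control replicate 1, against 5423, 5018 and 1991 CPM in the other cells (log2 fold change -1.46, SE 0.28, edgeR adjusted p = 0.000116). Vim, an intermediate filament of progenitors, fell with a log2 fold change of -1.41 (SE 0.29, edgeR adjusted p = 0.00055). Each was lower in the gated cells of every library.

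The other named lower genes had varied roles. Cyp26b1, which degrades retinoic acid, had 0, 80.1 and 71.0 CPM in the gated cells of En1/2 CKO replicates 1 and 2 and control replicate 1, against 413, 276 and 261 CPM in the other cells (log2 fold change -2.28, SE 0.43, edgeR adjusted p = 0.000109). Sfrp2, a secreted Wnt inhibitor of early Pax2 precursors, had 3 UMIs in all gated cells, 0.115 times its level in the other cells (95% counting interval 0.0236 to 0.335). Sostdc1, an inhibitor of BMP and Wnt, had 2 UMIs (0.108 times, 0.0131 to 0.391), and Nid1, a basement membrane protein, had 2 (0.113 times, 0.0137 to 0.409). Sox9, a factor of progenitors and glia, had 1 UMI (0.0597 times, 0.00151 to 0.333), as did the ubiquitin ligase gene Kcmf1 (0.0795 times, 0.00201 to 0.443). Plpp3, a lipid phosphatase of astroglia, and Serpinh1, a collagen chaperone, fell with log2 fold changes of -2.20 (SE 0.40, edgeR adjusted p = 5.31e-05) and -2.11 (SE 0.44, edgeR adjusted p = 0.000825). Mgst1, a glutathione transferase, fell with a log2 fold change of -2.35 (SE 0.65, edgeR adjusted p = 0.0441). The choroid plexus gene Ttr was called lower too, with 50.9, 53.4 and 8.87 CPM in the gated cells against 14223, 17598 and 5.90 CPM in the other cells. In control replicate 1 its level was close to 0 in both populations.

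Non-neuronal cells were part of what the comparison held. Cells with 3 or more UMIs of astroglial and progenitor genes made up 2 of 12, 2 of 34 and 0 of 78 gated cells in En1/2 CKO replicates 1 and 2 and control replicate 1. Among the other inhibitory cells they made up 28.1%, 22.7% and 10.4% of the same libraries. With such cells, and those with marker genes of microglia, vessels or choroid plexus, removed from both populations, 19 genes were called, 12 higher and 7 lower, of which 15 were among the 45. Of the 12 named higher genes, 10 stayed past the threshold without these cells, with log2 fold changes of 1.67 (SE 0.22) for Igfbp5, 1.31 (SE 0.23) for Pnoc, 1.42 (SE 0.26) for Glra2 and 1.42 (SE 0.29) for Grin2b. Dll1 (edgeR adjusted p = 0.148) and Pipox (adjusted p = 0.089) did not. Of the 12 named lower genes none stayed past it: 5 were still tested, all with a negative log2 fold change, and 7 no longer passed the low-count filter.

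The calls also rested on single libraries. Without En1/2 CKO replicate 1 there were 7, without En1/2 CKO replicate 2 there were 28 and without control replicate 1 there were 117, against 45. Of the 24 named genes, 4, 10 and 14 stayed past the threshold in these fits, and none changed its sign. By DESeq2 18 genes passed, of which 18 were among the 45.

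Set against inhibitory cells that were more like them, the gated cells differed in few genes. These tests used the 3 libraries with gated cells. Cell numbers are given for En1/2 CKO replicates 1 and 2 and control replicate 1, in this order. The first set was 47, 90 and 303 inhibitory cells with at least 2 UMIs of Sez6 and Igfbp5 and none of Sst or Cartpt. Against these, 2 of 2884 genes were called, Ttr and Snhg11, both lower, and 0 were higher. Of the genes that did not choose those cells, Pnoc had a log2 fold change of 0.97 (SE 0.27, edgeR adjusted p = 0.464), Glra2 of 0.80 (SE 0.28, adjusted p = 0.897) and Nxph4 of 0.85 (SE 0.27, adjusted p = 0.768) in that comparison. Each was positive and did not pass. The unadjusted p was under 0.05 for 45 genes higher and 77 lower. Against 63, 156 and 475 inhibitory cells with at least 2 UMIs of Pax2 and Robo3, 10 of 2661 genes were called, 5 higher and 5 lower. These cells too had no UMI of Neurod1, Neurod6, Nanos1, Nhlh2 or Scx, so precursors that carry those genes were left out. Glra2 (1.68, SE 0.25, edgeR adjusted p = 0.0102), Grin2b (1.75, SE 0.29, adjusted p = 0.0159) and Igfbp5 (1.91, SE 0.32, adjusted p = 0.0169) were among the higher. Against 25, 50 and 139 cells with 1 peptide UMI, just outside the gate, 0 of 1635 genes were called by edgeR (unadjusted p under 0.05 for 27 higher and 25 lower). Against the 217, 245 and 310 Sst/Cartpt cells that failed another gate term, 4 of 6420 genes were called, 0 of them among the 45. A p that misses the threshold does not show that these populations are alike.

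**Figure D4:**
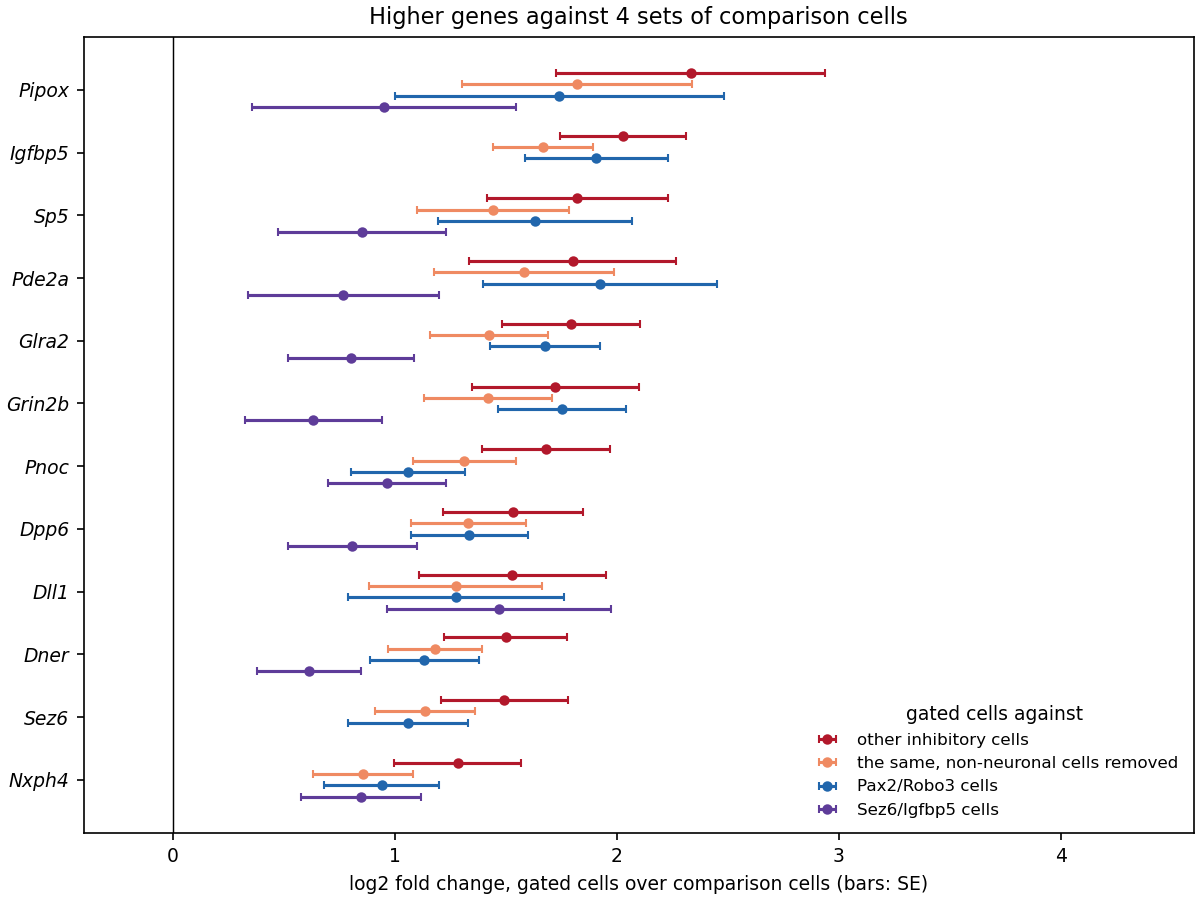
Log2 fold change with SE of the 12 named higher genes in the gated Sst/Cartpt cells against 4 sets of comparison cells, Igfbp5 and Sez6 being left out where they chose the cells. Against Sez6/Igfbp5 cells the values stay above 0 but are lower for most genes, 0.80 for Glra2 against 1.79 in the main comparison.

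The effect of the En1/2 deletion within the gated cells was compared between 2 En1/2 CKO libraries and 1 control library, the lone control being assumed to vary as the mutant pair did. Of 967 genes tested by edgeR's quasi-likelihood test, 3 passed an adjusted p of 0.05 (0.31%), 1 higher (0.103%) and 2 lower (0.207%) in En1/2 CKO. For the peptide genes used by the gate the fitted log2 fold change was 0.00 (SE 0.38) for Sst and 0.01 (SE 0.40) for Cartpt, given with no test. Pnoc (0.18, SE 0.39, adjusted p = 0.991), Igfbp5 (-0.24, SE 0.40, adjusted p = 0.991) and Glra2 (0.68, SE 0.50, adjusted p = 0.991) were not called by edgeR. None of the 13 inhibitory lineage transcription factors, 8 synaptic genes and 6 guidance genes that were tested passed.

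Each of the 3 calls was carried by single cells. Sparcl1, a secreted matrix protein of astroglia and some neurons, had 458 and 614 CPM in the gated En1/2 CKO cells, against 44.4 CPM in control replicate 1 (log2 fold change 3.52, SE 0.66, edgeR adjusted p = 3.98e-05). In En1/2 CKO replicate 1, 7 of its 9 UMIs came from 1 cell, and in En1/2 CKO replicate 2, 15 of 23 came from 1 cell, against 5 UMIs in 5 cells of control replicate 1. Those En1/2 CKO cells also held 4 and 9 UMIs of Olig1, Olig2, Slc1a3 and Apoe, genes of glia. The haemoglobin gene Hba-x fell by 2.89 on the log2 scale (SE 0.44, edgeR adjusted p = 8.07e-08), with 4 and 13 UMIs in En1/2 CKO against 235 in control replicate 1, of which 168 came from 1 cell. Hba-a1 fell by 2.53 (SE 0.43, edgeR adjusted p = 3.23e-06), with 6 and 12 UMIs in En1/2 CKO against 197 in control replicate 1, 157 of them from 1 cell. Without non-neuronal cells only the haemoglobin genes were called, and without cells rich in haemoglobin as well 0 of 884 genes passed by edgeR (unadjusted p under 0.05 for 7 higher and 17 lower). DESeq2 called 0 of 967 (unadjusted p under 0.05 for 10 higher and 4 lower).

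**Figure D5:**
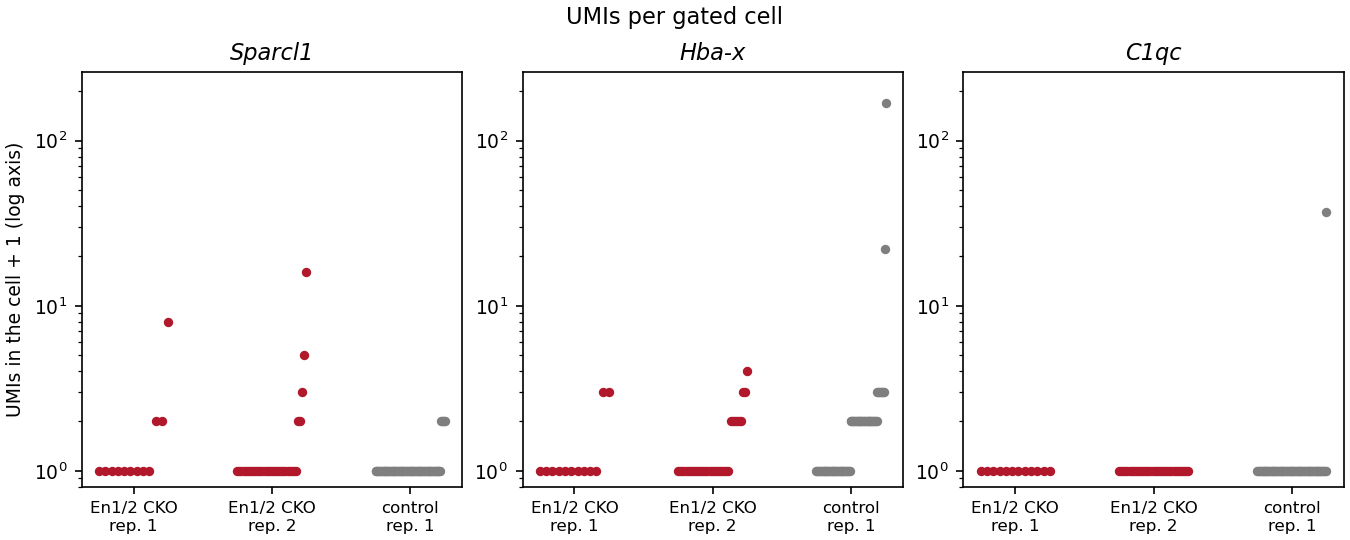
UMIs per gated cell (plus 1, log axis) of Sparcl1, Hba-x and C1qc in the 3 libraries that held gated cells (En1/2 CKO in red, control in grey), with 1 point per cell. In each panel the high total comes from 1 or 2 cells, such as the control cell with 168 UMIs of Hba-x and the control cell with 36 UMIs of C1qc.

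Genes that ranked next did not pass. The growth factor gene Ptn had 4022 and 3018 CPM in the gated En1/2 CKO cells, against 1251 CPM in control replicate 1 (log2 fold change 1.39, SE 0.46, edgeR adjusted p = 0.346). Pcsk1n had 1120 and 2003 CPM in En1/2 CKO, against 3433 CPM in control replicate 1 (log2 fold change -1.16, SE 0.42, edgeR adjusted p = 0.507). Both En1/2 CKO libraries lay on the same side of the control library for each, which was a condition for being named and adds no support. Ctsb, a lysosomal protease, had 255 and 267 CPM in En1/2 CKO, against 816 CPM in control replicate 1 (log2 fold change -1.69, SE 0.48, edgeR adjusted p = 0.0991), where 60 of its 92 UMIs came from 1 cell. Ctsb passed with doublets removed (edgeR adjusted p = 0.0299) and with at least 2 inhibitory UMIs a cell (adjusted p = 0.00358), and had an adjusted p of 0.998 with non-neuronal cells removed. Gpm6b (1.16, adjusted p = 0.46), Rps12 (1.80, adjusted p = 0.401) and Rps21 (1.08, adjusted p = 0.635) were positive, and Gapdh (-1.40, adjusted p = 0.108), Clta (-1.73, adjusted p = 0.346) and Atxn7l3b (-1.43, adjusted p = 0.639) negative on the log2 scale of the edgeR fit.

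Whether the genotype effect in the gated cells differed from that in the other inhibitory cells was tested as an interaction over both populations. Of 8333 genes, 24 passed an edgeR adjusted p of 0.05 (0.288%), 1 higher (0.012%) and 23 lower (0.276%). The genes that ranked first were those of microglia. C1qc, a complement gene, had 0 and 0 UMIs in the gated En1/2 CKO cells, against 36 UMIs in control replicate 1, and 36 of these came from 1 cell of 7358 UMIs. That cell held 86 UMIs of C1qa, C1qb and C1qc together, 2 of Sst, 1 of Cartpt and 2 of the inhibitory genes. Fcer1g, Tyrobp, Trem2 and C1qa, other genes of microglia, had 36, 21, 7 and 25 UMIs in the gated cells of control replicate 1, of which that library's top cell for each held 35, 21, 7 and 24. With non-neuronal cells removed 0 of 6372 genes passed by edgeR (unadjusted p under 0.05 for 8 higher and 95 lower), and DESeq2 called 4 of 8333 with all cells.

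The lists of other cell types show how far the gated cells held them. The 12 microglia and macrophage genes summed to 0 and 53.4 CPM in the gated En1/2 CKO cells, against 1801 CPM in control replicate 1. The 10 astroglia genes summed to 1374 and 855 CPM in En1/2 CKO, against 515 CPM in control replicate 1, with Slc1a3, a glutamate transporter of astroglia, at 458 and 240 CPM in En1/2 CKO against 35.5 CPM in control replicate 1. Apoe, a lipid carrier of astroglia and microglia, lay the other way, at 50.9 and 214 CPM in En1/2 CKO against 319 CPM in control replicate 1. The 7 genes of the oligodendrocyte lineage summed to 1120 and 187 CPM in En1/2 CKO, against 62.1 CPM in control replicate 1, with no UMI of Sox10. Between genotypes 0 of 2 tested astroglia genes, 0 of 1 tested oligodendrocyte gene and 0 of 2 tested microglia genes were called by edgeR. The 8 erythroid genes summed to 1578 and 1843 CPM in En1/2 CKO, against 6059 CPM in control replicate 1. Of 11 vascular and meningeal genes 3 had a UMI, and of 7 choroid plexus genes 1 had, Ttr. Of 18 glutamatergic genes 7 had a UMI, among them Meis2 (407 and 267 CPM in En1/2 CKO, against 88.7 CPM in control replicate 1). Of 16 Purkinje cell genes 12 had a UMI, with 9 tested against the other inhibitory cells, 0 higher and 1 lower, Ebf1. Genes of dissociation stress and immediate early response, of which 8 of 17 were tested, had 0 called and a median log2 fold change of -0.38 in the gated over the other cells. Apoptosis and survival genes, with 13 of 25 tested, had 0 called (median -0.23).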

How the data were processed

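Deposited files held UMI counts per gene and barcode for 4 libraries, 32286 genes each, made by the authors with Cell Ranger 6.1.0 on mm10, per the submitters' processing notes, and not normalised. The other deposited files hold barcodes and gene names as text, with no measured value. Whether intron reads were counted is not given in the sources used here. The members, gene lists and gate were chosen with earlier results of these data known. Promoters came from RefSeq (GRCm38.p6), and 4 were read: Pnoc and other members were not matched.

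Counts were summed per library and population of at least 10 cells, with gate genes left out of the tests between populations. edgeR 4.0.16 (R 4.3.3; TMM, filterByExpr, quasi-likelihood F test, Benjamini-Hochberg threshold 0.05, checked on simulated data) gave log2 fold changes, with the SE derived from the F statistic; limma 3.58.1 was loaded with it, and DESeq2 1.42.0 was an alternative. Sub-clusters came from scanpy 1.11.5 (Leiden). Named genes were En1, En2, the gate genes and markers, then up to 12 called genes in each direction with at least 20 CPM and the same direction in every library, filled up to 10 by unadjusted p (5 for the interaction), then up to 6 members of each list by level; haemoglobin genes were not to be named by rank. Hba-x, Hba-a1, Ttr, Snhg11 and Syp, and the genes given for the Sst-only and Cartpt-only cells, were partly chosen after their values were seen. Doublets were kept. Scrublet marked 0.51% to 9.22% of the kept cells of a library and 5 gated cells, with a fallback of 0.8% per 1000 barcodes where it marked under 0.5%, and their removal was an alternative. Further alternatives were RLE size factors, no low-count filter, stricter cell and gate limits, thinning to 1000 UMIs, other comparison cells and leaving out each library; those with Sez6/Igfbp5 cells, cells outside the gate, cells with 1 UMI, and removal of non-neuronal or haemoglobin-rich cells were chosen after seeing the data.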

Additional observations from a re-analysis of the deposited data

Results flagged for a closer look

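The genotype effect differed between the gated Sst/Cartpt cells and the other inhibitory cells, by the interaction test of edgeR, for 6 named genes. Sparcl1 had a difference of 3.12 on the log2 scale (SE 0.70, adjusted p = 0.0043), with 22 of its 32 UMIs in the gated En1/2 CKO cells coming from 2 cells. C1qa (-14.18), Fcer1g (-13.87), C1qc (-13.72), Trem2 (-13.59) and Tyrobp (-13.07) had no UMI in the gated En1/2 CKO cells, against 7 to 36 UMIs in control replicate 1, nearly all from 1 cell. Fitted against libraries at 0, these 5 values depend on the prior count and are no measure of size. With non-neuronal cells removed, Sparcl1 missed the threshold (1.02, SE 1.09, adjusted p = 1 by edgeR) and the other 5 were no longer tested.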

How the results depend on the processing

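No paired analysis was possible because, for the tests across genes, control replicate 2 held no gated cell and the genotypes share fewer than 2 replicate numbers. For the share of kept cells, with the replicate number as a block (chosen after seeing the data), the mean difference within pairs was -0.0489 percentage points (exact sign permutation, two-sided p = 1, 2 pairs, smallest possible p 0.5), and the pairs lay on opposite sides, -0.521 and 0.423. The difference in share of kept cells, En1/2 CKO minus control, was -0.0489 percentage points. It turned positive without non-neuronal cells (0.0466), without haemoglobin-rich cells as well (0.0595) and over inhibitory cells (1.43), and ranged from -0.424 to 0.326 when 1 library was left out. The difference in the Sst-only share of gated cells (-2.77 percentage points) was 13.5 in thinned cells, 0 under the stricter cell filter and -21.2 to 15.6 with 1 library left out. That in the Cartpt-only share (12.9) was -6.66 in thinned cells and -3.02 to 28.8 with 1 library left out. Calls between genotypes (3) became 0 with DESeq2, 5 without the low-count filter, 1 with 2 inhibitory UMIs, and 0 without non-neuronal and haemoglobin-rich cells. Calls of gated against other inhibitory cells (45) became 18 with DESeq2, 7 with 3 peptide UMIs, 1 with 2 inhibitory UMIs, 12 in thinned cells, 1 without the library block, 19 without non-neuronal cells and 20 without haemoglobin-rich cells as well, and 7 to 117 with 1 library left out. Against other comparison cells they were 10 (Pax2/Robo3), 2 (Sez6/Igfbp5), 4 (outside the gate) 0 (1 peptide UMI) and 57 (Purkinje cells, 22 higher and 35 lower of 2736), with fewer genes tested in most of these. Serpinh1 reversed against Purkinje cells (0.11, SE 0.73, adjusted p = 0.957 by edgeR). Calls of the interaction (24) became 4 with DESeq2, 0 without non-neuronal cells and 0 without haemoglobin-rich cells as well. Doublets removed gave 3, 61 and 23 calls in the 3 fits, with 0 higher in the genotype fit and the interaction: Sparcl1 was no longer tested between genotypes and missed the threshold of the interaction (adjusted p = 1 by edgeR). The causes were not tested. RLE size factors gave 3, 51 and 25 calls in the 3 fits and reversed none of the named genes. Not run, because fewer than 10 cells were left in a library or no residual degrees of freedom remained, were the tests of Sst-only against Cartpt-only cells, the stricter cell filter in the 3 fits, and 3 peptide UMIs, thinning and leaving out an En1/2 CKO library or control replicate 1 in the genotype and interaction fits. With 12 to 78 cells a library and 19644 to 112729 UMIs, 3 counts stood for 26.6 to 153 CPM, which limits what could be measured of low genes in these cells.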
